A study of Mus musculus with 6 samples.

Results

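The 10 genes described here act in cholesterol efflux or mark lipid-laden (foam) macrophages, and were followed in mouse lung: Abca1, Abcg1, Apoe and Nr1h3 on the export side, Msr1, Cd5l and Trem2 on the side of lipid uptake and sensing, and Gpnmb, Spp1 and Mmp12, which foam cells make in quantity. They were taken by gene name from a table of 21900 genes, and all 10 were found and passed the filter on low values (a mean of at least 0.5 CPM, counts per 1000000 reads assigned to genes). The table covers whole lungs of mice fed a high fat (western) diet for 10 weeks, with 3 libraries labelled wild type and 3 labelled Cyp1b1 knockout. Under each label, 2 libraries are female (numbered 1 and 2 here) and 1 is male (numbered 3). All libraries share the diet, so no effect of diet can be read from them. Strain, age, the deleted exons and whether each library is a separate animal are given by no source used here, so p-values measure the spread between libraries.

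Macrophages that take up modified lipoproteins, dying cells or, in the alveoli, surfactant lipid must store or export the cholesterol. Oxysterols activate LXR alpha, the nuclear receptor encoded by Nr1h3, which drives transcription of the transporters Abca1 and Abcg1 and of Apoe. ABCA1 hands cholesterol to lipid-poor apolipoprotein A-I and ABCG1 hands it to HDL, and the lung is known to depend on this route, since mice without ABCG1 gather foamy macrophages there. When uptake outruns export, cells swell with lipid droplets and express a lysosomal and matrix-degrading programme in which Trem2, Gpnmb, Spp1 and Mmp12 are common markers.

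Promoter sequence is shown for 3 members that stand for the patterns described below: Abca1, higher in both males, and Mmp12 and Trem2, which set the male labelled wild type apart from the other libraries. RefSeq (GRCm38.p6) windows from 250 bases before to 50 after a start were found for 8 of the 10 members; those of Abcg1 and Msr1 were not used here. The stretches end at the base before the start, read 5′ to 3′ on the gene's strand, lie in no annotated exon of their gene, and carry the searched motifs in capitals.
Abca1, chr4:53159896-53160055, minus strand, E-box and TATA box: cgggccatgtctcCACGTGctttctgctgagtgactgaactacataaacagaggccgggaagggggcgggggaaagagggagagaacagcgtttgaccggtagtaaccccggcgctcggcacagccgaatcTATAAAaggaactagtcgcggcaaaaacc
Trem2, chr17:48346261-48346400, plus strand, AGGTCA on the opposite strand and AP-1: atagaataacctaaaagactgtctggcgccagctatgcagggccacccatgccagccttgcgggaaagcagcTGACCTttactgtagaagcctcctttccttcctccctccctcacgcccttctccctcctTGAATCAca
Mmp12, chr9:7347234-7347373, plus strand, AGGTCA and M-box on the opposite strand and AP-1: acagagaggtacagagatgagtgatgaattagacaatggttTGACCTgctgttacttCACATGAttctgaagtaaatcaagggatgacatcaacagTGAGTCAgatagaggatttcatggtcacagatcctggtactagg

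Both strands were searched for the LXR response element (the unit AGGTCA repeated in the same direction after 4 bases of any kind), that unit alone, which any such element also contains, AP-1 TGANTCA, the E-box CACGTG, the M-box TCATGTG, PU.1 GAGGAAGT and the TATA box TATAAA. None of the 8 members held these exact letters of the full LXR element in these windows. Only 5 of 32851 windows (0.0152%) did, so their absence here tells nothing about the members. Elements whose units differ from AGGTCA were not searched for, are not in capitals and can lie in these windows. AP-1 letters, which 7.81% of windows held, were present in 3 members: TGAGTCA starts 44 bases before the second start of Mmp12, TGAATCA 9 bases before that of Trem2, and TGACTCA 8 bases after that of Gpnmb. The hexamer AGGTCA (16.3% of windows) was in Mmp12 and Trem2, the M-box (3.77%) in Mmp12, and the E-box (7.15%) in Abca1. PU.1 letters (3.2% of windows) were in Spp1 and in the first window of Mmp12, and TATAAA (13.6%) in Abca1, Apoe, Spp1 and Mmp12. TATAAA lay 29 bases before the start of Abca1 and 211 before the first start of Spp1. It lay 96 and 100 bases before the second start of Apoe and 4 after the second start of Mmp12. The shares are per window and a member had 1 to 3 windows, so counts of members cannot be set directly against them. These matches describe the windows and show no binding.

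The targeted gene goes against the genotype labels, and the 2 male libraries stand apart. Cyp1b1, a cytochrome P450, averaged 51.9 ± 3.92 CPM (SD, n = 3) under the knockout label and 16.7 ± 3.64 CPM (SD, n = 3) under the wild type label, higher in 3 of 3 libraries of the label that names its loss (log2 difference 1.63, limma adjusted p = 0.0588). With the deleted exons unknown, reads from the rest of the gene cannot be told from an intact transcript, so directions below are those of the labels. Depth ran from 20.2 M to 27.6 M assigned reads. Alveolar, endothelial and muscle markers of lung were abundant in all libraries, with Sftpc, the surfactant protein of alveolar type 2 cells, the highest of the markers. Neutrophil markers summed to 6692 CPM in the male labelled knockout against 201 to 276 CPM in the females, and C1qa, the complement gene of interstitial macrophages, lay between 28.0 and 36.4 CPM in females but reached 203 CPM in the male labelled wild type. The comparisons of the 10 genes are therefore also given for the females or without a male.

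Levels of different genes were compared per kb of annotated exons. This length joins the exons of all annotated transcripts of a gene, from 1.648 kb for Spp1 to 10.363 kb for Abca1. Where the lung uses a shorter transcript, the value is too low, by an amount that can differ between genes. Apoe was the most abundant at 322 ± 183 CPM per kb (SD, n = 6), followed by Spp1 at 92.7 ± 34.8 CPM per kb (SD, n = 6), and neither range over the libraries overlapped that of the next gene. Nr1h3 (16.8 ± 1.6), Abcg1 (15.3 ± 4.17) and Abca1 (11.4 ± 3.55 CPM per kb, SD, n = 6 each) formed a middle group of 3 genes whose ranges overlapped. Gpnmb came next at 5.29 ± 6.12 CPM per kb, and its highest library reached into that group. Trem2 (1.59 ± 1.34), Msr1 (0.916 ± 0.812), Mmp12 (0.835 ± 0.976) and Cd5l (0.528 ± 0.432 CPM per kb) were lowest, with ranges that overlapped from one to the next. By this measure the transporters and their receptor lay close together, while the macrophage genes other than Spp1 had lower means. Relative to its mean, each of these also varied more over the 6 libraries, and each was highest in the male labelled wild type. In the 4 females alone, Msr1 was at 3.10 ± 0.357 CPM and Gpnmb at 16.6 ± 3.53 CPM (SD, n = 4 each). Trem2 (5.47 ± 2.19), Mmp12 (3.70 ± 1.02) and Cd5l (0.936 ± 0.612 CPM, SD, n = 4 each) varied more for their means there. The order by the transcripts in use was not tested.

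**Figure D1:**
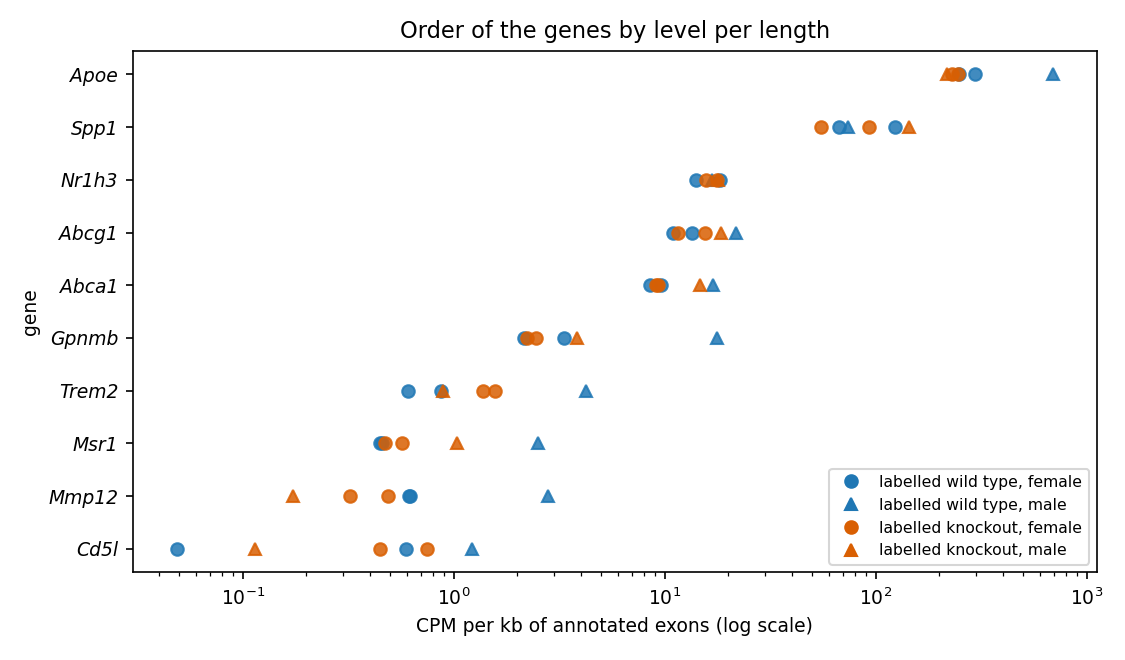
Level of each of the 10 genes per kb of annotated exons (x axis, CPM per kb, log scale), 1 point per library, coloured by genotype label with circles for females and triangles for males. Apoe and Spp1 sit above the rest. The male labelled wild type lies to the right of the other libraries for Apoe, Gpnmb, Trem2, Msr1, Mmp12 and Cd5l, and by less for Abca1 and Abcg1.

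Abca1 (ENSMUSG00000015243, mm10 chromosome 4, 53030787 to 53159895, minus strand) measured 88.3 and 100 CPM in wild-type-labelled females, 96.3 and 94.7 CPM in the females labelled knockout, 176 CPM in the male labelled wild type and 152 CPM in that labelled knockout. The 4 females lay close together and both males lay above them. Abcg1 (ENSMUSG00000024030, chromosome 17, 31057675 to 31117988, plus strand) also had both males above all females, at 98.7 and 80.0 CPM in females labelled wild type, 113 and 84.8 CPM in females labelled knockout, and 158 and 135 CPM in the males of those labels. Nr1h3 (ENSMUSG00000002108, chromosome 2, 91184061 to 91202834, minus strand), the receptor upstream of both, was the steadiest member, between 35.4 and 46.1 CPM over the 6 libraries. Its wild type label held 46.1, 35.4 and 42.4 CPM and its knockout label 39.7, 44.7 and 44.8 CPM, with the labels overlapping.

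Apoe (ENSMUSG00000002985, chromosome 7, 19696109 to 19699188, minus strand), the secreted apolipoprotein that carries exported cholesterol, measured 634 and 534 CPM in females of the wild type label and 492 and 526 CPM in those labelled knockout. The male labelled wild type reached 1477 CPM and the male labelled knockout 464 CPM, the highest and the lowest of the 6. Apoe therefore did not follow the transporters, which were high in both males.

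Msr1 (ENSMUSG00000025044, chromosome 8, 39581685 to 39642673, minus strand), the class A scavenger receptor for modified LDL, measured 2.85 and 2.92 CPM in females labelled wild type, 3.0 and 3.63 CPM in females labelled knockout, 15.9 CPM in the male labelled wild type and 6.55 CPM in that labelled knockout. Both males were above all females, as for the transporters, but by unequal amounts. Trem2 (ENSMUSG00000023992, chromosome 17, 48346401 to 48354147, plus strand), a receptor for lipids and lipoproteins, was at 4.31 and 3.02 CPM in females labelled wild type, 6.81 and 7.76 CPM in females labelled knockout, 21 CPM in the male labelled wild type and 4.41 CPM in that labelled knockout. Among the females Trem2 was at higher values under the knockout label, while between the males it was at the lower value there. Cd5l (ENSMUSG00000015854, chromosome 3, 87357881 to 87371073, plus strand), a secreted macrophage protein that limits apoptosis, was the scarcest member, at 1.21 and 0.099 CPM in females labelled wild type, 1.52 and 0.906 CPM in females labelled knockout, 2.48 CPM in the male labelled wild type and 0.234 CPM in that labelled knockout. These Cd5l values stand for about 2 to 58 reads, and the value of 0.099 CPM is below the level of 3 reads in its library (0.148 CPM), so they order the libraries poorly.

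Gpnmb (ENSMUSG00000029816, chromosome 6, 49036546 to 49070929, plus strand), a lysosomal glycoprotein of lipid-laden macrophages, measured 14.0 and 21.7 CPM in females of the wild type label and 14.6 and 16.1 CPM in the females labelled knockout. It reached 115 CPM in the male labelled wild type, 6.96 times the mean of the 4 females, and 25.1 CPM in the male labelled knockout, 1.51 times that mean. Mmp12 (ENSMUSG00000049723, chromosome 9, 7344381 to 7369499, plus strand), the macrophage elastase, measured 4.44 and 4.50 CPM in females of the wild type label and 2.33 and 3.52 CPM in females labelled knockout. The males held its highest value, 20.2 CPM under the wild type label, and its lowest, 1.25 CPM under the knockout label, a ratio of 16.2. Spp1 (ENSMUSG00000029304, chromosome 5, 104435118 to 104441050, plus strand), the secreted phosphoprotein osteopontin, kept to neither pattern. It was at 204 and 110.2 CPM in females labelled wild type, 90.4 and 152 CPM in females labelled knockout, 122 CPM in the male labelled wild type and 237 CPM in that labelled knockout, so the females alone spanned most of its range. Spp1 shares exon sequence with the annotated gene Gm42793, Mmp12 with Mmp1b and Nr1h3 with Gm13783, and with strand use unknown their reads could be split or shared. Of these overlapping genes, Gm42793 is in the deposited table, while Mmp1b and Gm13783 are not.

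**Figure D2:**
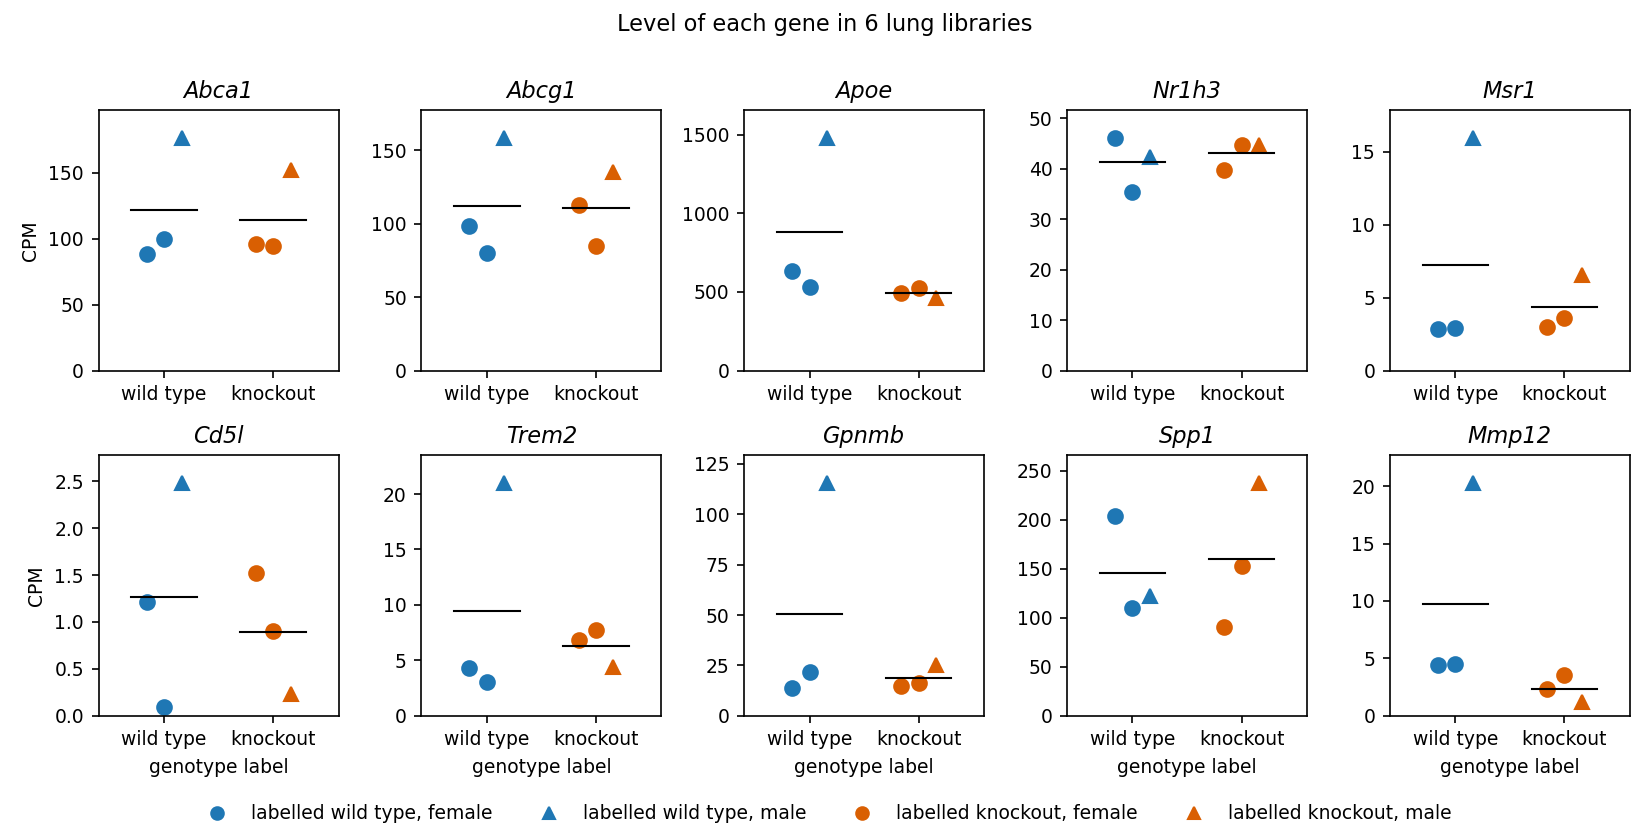
CPM of each gene (y axis, linear from 0, scaled per panel) in the 3 libraries of each genotype label, circles for females, triangles for males, with a bar at the mean of 3. The male labelled wild type is the highest point for 8 genes, while Spp1 is highest in the male labelled knockout (237 CPM) and Nr1h3 in a female labelled wild type (46.1 CPM).

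The highest library was the male labelled wild type for 8 of 10 members, against 25.7% of the 17382 genes tested, and the male labelled knockout for 1, against 17.6%. It was at least 2 times the highest female for 5 members (Apoe, Msr1, Gpnmb, Mmp12 and Trem2), where 4.25% of genes tested reached that ratio, and at least 3 times it for 3 members (1.82% of genes). Msr1, Gpnmb and Mmp12 were those 3. These counts of the male labelled wild type rest on 1 library. The members were also chosen with earlier results of these data known, so the shares are background and no independent test.

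The main comparison of the design asks whether the genotype label moves these genes under the high fat diet. No member passed the test between genotype labels, a limma fit over all genes on log2(CPM + 0.5) whose terms were sex and genotype label, with a Benjamini-Hochberg adjusted p under 0.05 as threshold (0 of 10 members, against 0.0115% of all genes). Without adjustment 2 members had p under 0.05, Mmp12 and Apoe, where 5.13% of genes did. Mmp12 averaged 9.72 ± 9.10 CPM (SD, n = 3) under the wild type label and 2.36 ± 1.13 CPM (SD, n = 3) under the knockout label, a log2 difference of -1.56 (SE 0.56, limma adjusted p = 0.775). Apoe averaged 881 ± 518 and 494 ± 30.9 CPM (SD, n = 3 each), a log2 difference of -0.68 (SE 0.27, limma adjusted p = 0.775). These 2 were also the members whose labels did not overlap, which held for 9.52% of all genes, and the exact two-sided permutation test over 20 assignments gave p = 0.1 for each, the smallest that 3 against 3 allows.

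Both of those differences were smaller without the males. In the 4 females the log2 difference was -0.19 for Apoe and -0.56 for Mmp12, against -1.67 and -3.57 between the males. Gpnmb averaged 50.3 ± 56.4 and 18.6 ± 5.68 CPM (SD, n = 3 each), a log2 difference of -0.85 (SE 0.38, limma adjusted p = 0.775), and was -0.18 in the females. The transporters and their receptor differed least: the log2 difference was -0.05 for Abca1 (SE 0.11), 0.02 for Abcg1 (SE 0.15) and 0.07 for Nr1h3 (SE 0.14). Msr1 (-0.29, SE 0.33), Spp1 (0.08, SE 0.33), Trem2 (-0.10, SE 0.56) and Cd5l (-0.18, SE 0.64) had differences smaller than their standard errors, and each of these 4 had the other sign in the females alone. The median over the 10 members was -0.14, beside -0.06 over all genes tested.

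Between the sexes, Abca1 was the 1 member that passed. It averaged 164 ± 17.0 CPM (SD, n = 2) in males and 94.8 ± 4.89 CPM (SD, n = 4) in females, a log2 difference of 0.79 (SE 0.11), or 1.72-fold higher in males (limma adjusted p = 0.0287, 1 of 10 members against 0.834% of all genes in either direction and 0.627% higher in males). The call was lost when any 1 of the 4 females was left out, with log2 differences of 0.73 to 0.81 and limma adjusted p between 0.0636 and 0.154. It held without either male. Males lay above females without overlap for 4 members, Abca1, Abcg1, Msr1 and Gpnmb, where 9.28% of all genes did so, and the exact two-sided permutation test over 15 assignments gave p = 0.133 for each, the smallest it can give here. Abcg1 had a log2 difference of 0.65 (SE 0.16, limma adjusted p = 0.116), Msr1 1.59 (SE 0.35, limma adjusted p = 0.0879) and Gpnmb 1.69 (SE 0.40, limma adjusted p = 0.104). With the male labelled knockout left out, 6 members passed (Abca1, Apoe, Gpnmb, Mmp12, Msr1 and Trem2), against 4.1% of all genes. With the male labelled wild type left out, Abca1 alone did, against 5.05%. The sex with 1 library left is then assumed to vary like the females. With 2 males that each stand apart from the females, sex cannot be told apart from other features of these lungs.

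The genotype difference of the males was unlike that of the females for 4 members, by the interaction term of limma: Trem2, Mmp12, Gpnmb and Apoe (4 of 10, each with a lower knockout-minus-wild-type difference between the males than between the females, against 2.54% of all genes in either direction, 1.84% lower and 0.702% higher). For Trem2 the log2 difference between labels was 0.92 in females and -2.13 in males, an interaction of -3.05 (SE 0.47, limma adjusted p = 0.0148). Mmp12 had an interaction of -3.01 (SE 0.52, limma adjusted p = 0.0244), with the same sign in females and males. Gpnmb had -2.0 (SE 0.37, limma adjusted p = 0.0321) and Apoe -1.48 (SE 0.21, limma adjusted p = 0.0107).

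The remaining members did not pass, though 7 of 10 had an unadjusted p under 0.05, as 17.9% of all genes did. Cd5l had an interaction of -2.75 (SE 0.94, limma adjusted p = 0.177), Msr1 -1.39 (SE 0.47, limma adjusted p = 0.177) and Spp1 1.30 (SE 0.52, limma adjusted p = 0.237). Abca1 (-0.23, SE 0.19), Abcg1 (-0.36, SE 0.28) and Nr1h3 (0.02, SE 0.28) were nearest to 0. The median of the members was -1.43, beside -0.13 over all genes. With 1 male per label this compares 2 libraries against the spread of the females, and without the filter on low values no gene at all passed (the adjusted p of these 4 was then 0.141 to 0.208, and 3367 of 21900 genes had an unadjusted p under 0.05). Gpnmb also missed the threshold without either female labelled knockout (limma adjusted p = 0.0542 and 0.062) and with quantile normalization (limma adjusted p = 0.051), where the other 3 passed. Over all genes the split of interaction calls was 122 higher and 319 lower, and 348 higher and 313 lower after median centring, which moved the median of all genes from -0.13 to 0.09; the same 4 members passed under both, each with an interaction below 0.

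**Figure D3:**
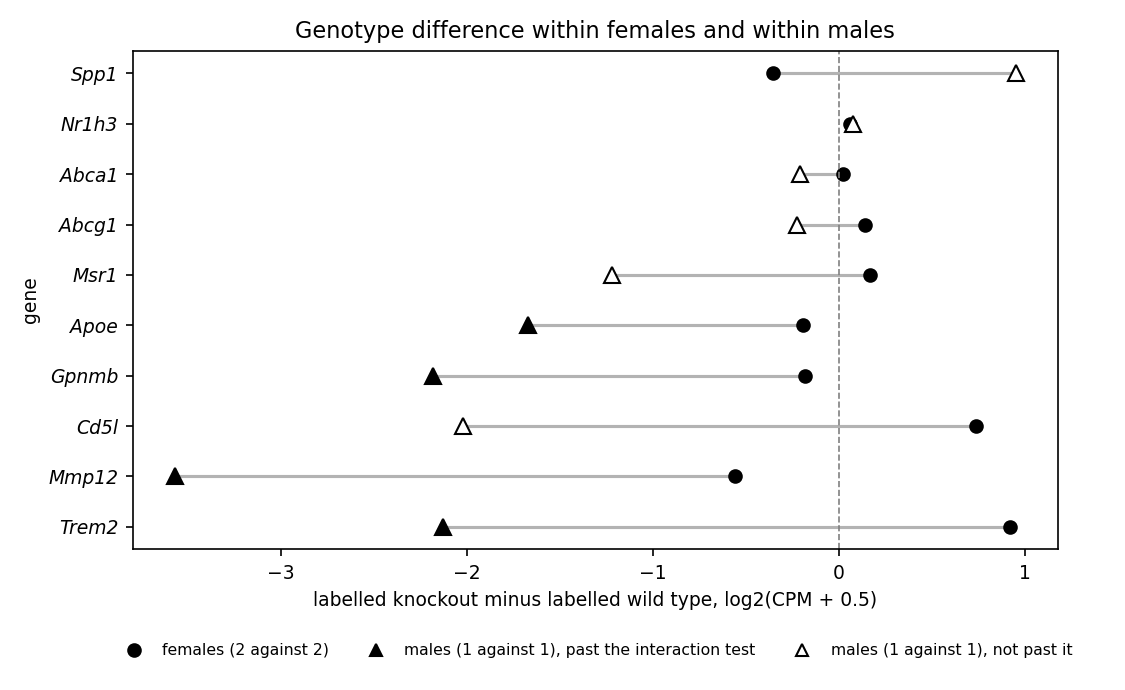
Difference between genotype labels on the log2(CPM + 0.5) scale (x axis) for each gene, as a circle for the females (2 against 2) and a triangle for the males (1 against 1), the triangle filled where the interaction passed the test. For Trem2 the females are at 0.92 and the males at -2.13, while for Nr1h3 both are near 0.

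Some cell type markers were, like most members, highest in the male labelled wild type. In the male labelled knockout the median interstitial macrophage marker was 0.645 times the mean of the 4 females. There the members went both ways, at 0.250 times for Cd5l, 0.338 for Mmp12, 0.805 for Trem2 and 0.849 for Apoe, but 1.51 for Gpnmb and 2.11 for Msr1. For the counts here and below, the male labelled wild type was the highest library for 25.7% of all genes tested and the male labelled knockout for 17.6%. The interaction test was passed by 1.84% of genes as lower and by 0.702% as higher. The test between sexes was passed by 0.627% as higher in males. Of 9 interstitial macrophage markers, all in the table, 7 were highest in the male labelled wild type and 5 passed the interaction test in the same direction as Trem2, Mmp12, Gpnmb and Apoe, among them C1qa, C1qb, C1qc and Adgre1. Their summed level was 341 to 408 CPM in the females, 931 CPM in the male labelled wild type and 387 CPM in that labelled knockout. Lyve1, the most abundant of the 9, went the other way, at 154 CPM in the male labelled wild type and 267 CPM in that labelled knockout, and did not pass. C1qa was at 203 CPM in the male labelled wild type and 13.9 CPM in that labelled knockout, an interaction of -3.71 (SE 0.27, limma adjusted p = 0.000418). All 6 T cell markers were highest in the male labelled wild type too, with sums of 31.3 to 40.7 CPM in the females against 133 and 28.3 CPM in the males labelled wild type and knockout, and 2 of them passed the interaction test as lower, Cd4 among them (42.2 and 3.31 CPM in the males). The part of these cells in the result was not tested, and in whole lung fewer cells of a type and less RNA per cell cannot be told apart.

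Other marker lists moved otherwise. The 12 alveolar macrophage markers summed to 394 to 652 CPM in the females and to 567 and 565 CPM in the males labelled wild type and knockout, with 1 past the interaction test (Chil3, a chitinase-like protein, higher). Inflammatory monocyte markers were by their sum above all females in both males, as Abca1, Abcg1, Msr1 and Gpnmb were. For Gpnmb the gap was narrow in the male labelled knockout, at 25.1 CPM against 21.7 CPM in the highest female. The sum of the monocyte markers was 91.8 to 121 CPM in the females, 268 CPM in the male labelled wild type and 412 CPM in that labelled knockout. Between the males the sum was thus higher under the knockout label, where those members were lower. Of the 6 markers, 2 passed the test between sexes (Ccr2 and Ly6c2, both higher in males) and 1 the interaction test as higher. Erythroid markers were also high in both males, at 852 to 1608 CPM in the females against 2768 and 5898 CPM, and 2 of 6 passed between sexes (Alas2 and Slc4a1, higher). The part of either list in the sex difference of Abca1 was not tested. Neutrophil markers were highest in the male labelled knockout for 10 of 10, with 8 past the interaction test as higher, S100a8 the most abundant of them (20.5 to 42.9 CPM in the females and 1467 CPM in that male), a pattern that Spp1 alone among the members shares by its highest library. Dendritic cell markers summed to 125 to 146 CPM in the females and to 190.0 and 136 CPM in the males, and B cell markers to 128 to 229, 225 and 60.0 CPM, with 1 and 2 markers past the interaction test as lower. Platelet markers were 33.0 to 59.3 CPM in the females, 59.3 CPM in the male labelled wild type and 344 CPM in that labelled knockout. Adipocyte markers were 41.7 to 95.2 CPM in the females and 66.9 and 67.8 CPM in the males. The 3 of 5 melanocyte markers found in the table summed to 0.742 to 1.42 CPM in the females. Their sum was 2.31 CPM in the male labelled wild type and 1.17 CPM in that labelled knockout, and only 1 of them passed the filter on low values. Whether adipocytes have a part in the level of Lpl, or melanocytes in that of Gpnmb, was not tested.

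**Figure D4:**
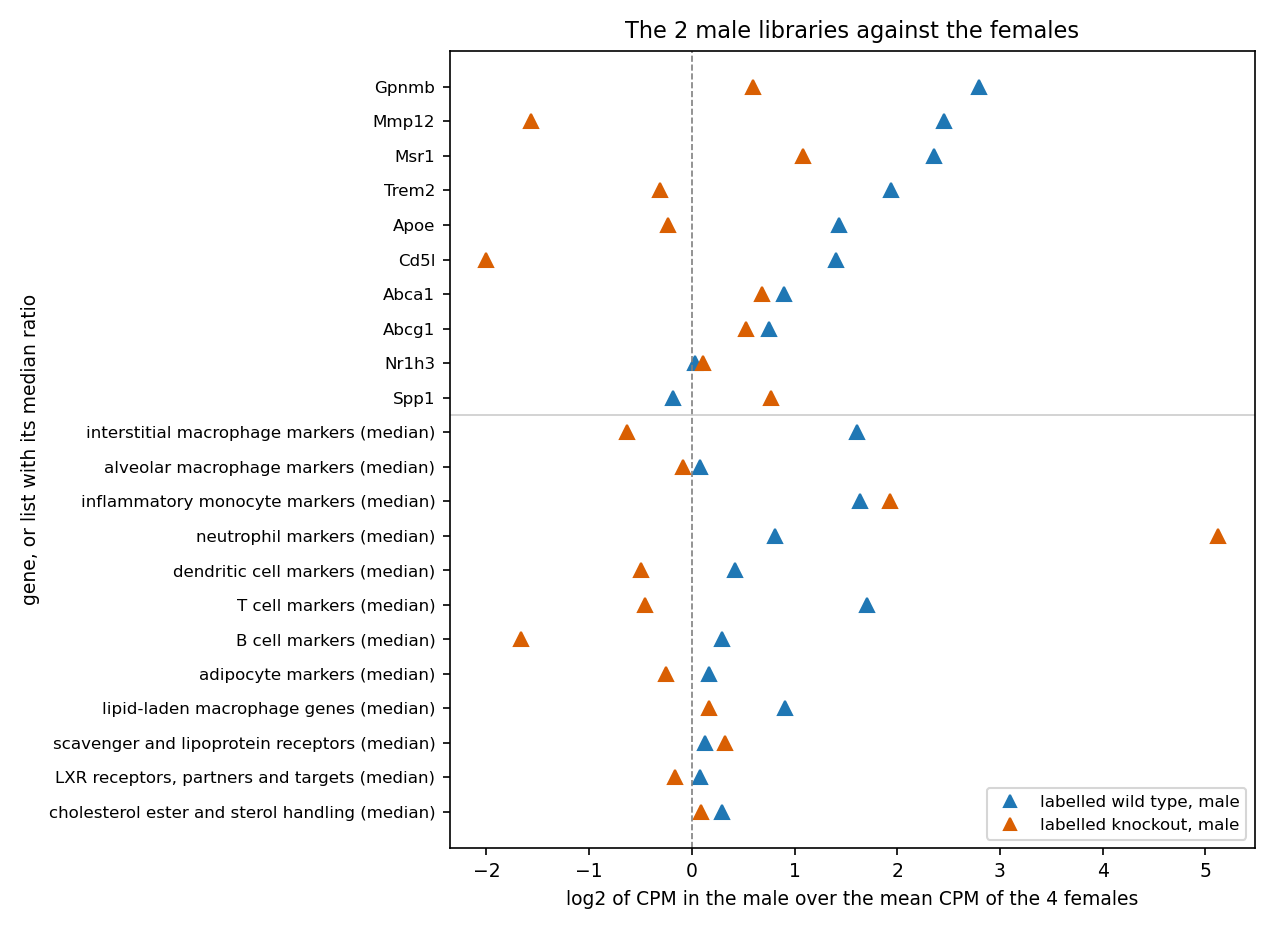
Ratio of each male library to the mean of the 4 females on a log2 scale (x axis), for each gene (upper part) and for lists of other genes as the median ratio of their members (lower part). The male labelled wild type is 6.96 times the females for Gpnmb and 3.06 times for the median interstitial macrophage marker, against 1.06 times for the median alveolar macrophage marker, and the male labelled knockout is 34.9 times for the median neutrophil marker.

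Few other genes of the cholesterol pathway passed a test. Of 13 genes of LXR receptors, partners and targets, 11 were tested and 0 passed between genotype labels or sexes, with a median genotype difference of -0.03. Pltp, the phospholipid transfer protein and the most abundant of them, was named after its values were seen: it had 340 and 391 CPM in the males labelled wild type and knockout and 536 to 630 CPM in females, the opposite side to Abca1 (log2 sex difference -0.66, SE 0.13, limma adjusted p = 0.0646). Arl4c, a small GTPase induced by LXR, was the 1 that passed the interaction (-1.39, SE 0.19, limma adjusted p = 0.00963), with 80.3 to 101 CPM in females, 129.8 CPM in the male labelled wild type and 58.8 CPM in that labelled knockout. Lpcat3, a phospholipid remodelling enzyme, and Rxrb, a partner of LXR, had the smallest genotype p of that list, with log2 differences of 0.26 and -0.28 (limma adjusted p = 0.775 each). The sterol exporters Abcg5 and Abcg8, known from liver and gut, were too low to be tested. For storage and handling of cholesterol ester, 0 of 13 genes passed any of the 3 tests (median genotype difference -0.12, but -0.032 in the females alone and from -0.19 to 0.064 with a library left out, above 0 without labelled knockout 1 or labelled wild type 2). Cyp27a1, which makes an oxysterol that activates LXR, had a log2 genotype difference of -0.41 (limma adjusted p = 0.775), and Lipa, the lysosomal acid lipase, -0.23 (limma adjusted p = 0.775). HDL and other apolipoproteins had 7 of 9 genes in the table and 4 tested, with 0 past any test; Apoc1 and Apoc2 had log2 genotype differences of -0.67 and -0.48, or -0.10 and -0.42 in the females alone. The median interaction of those 4 was -0.62, beside -0.13 over all genes.

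Scavenger and lipoprotein receptors and the wider foam cell list held the other calls. Of 13 receptors, whose median interaction was 0.36, 2 passed, both in the direction opposite to that median: Cd68, a lysosomal macrophage glycoprotein, at -1.49 (SE 0.25, limma adjusted p = 0.02) and Cxcl16, which binds oxidised lipids, at -1.49 (SE 0.20, limma adjusted p = 0.0078). Cd68 missed the threshold without labelled knockout 1 (limma adjusted p = 0.0657). The females held 22.7 to 27.1 CPM of Cd68, the male labelled wild type 89.4 CPM and the male labelled knockout 34.2 CPM. Of 14 lipid-laden macrophage genes, 12 were highest in the male labelled wild type (25.7% of all genes) and 4 passed the interaction (2.54% of all genes). Itgax, an integrin of macrophages and dendritic cells (-2.12, limma adjusted p = 0.00233), the cathepsin Ctsk (-2.12, 0.0146) and the fatty acid carrier Fabp5 (-2.0, 0.00343) were lower. Lpl, the lipase that frees fatty acids from lipoproteins, went the other way (1.90, SE 0.18, limma adjusted p = 0.00144), with 224 to 254 CPM in females, 295 CPM in the male labelled wild type and 1030.2 CPM in that labelled knockout. Lgals3, the lectin galectin 3, was the 1 gene of the list that passed between sexes, with 92.2 to 107 CPM in females, and 173 and 149.6 CPM in the male libraries (0.73 higher on the log2 scale, SE 0.11, limma adjusted p = 0.0335). Like Abca1, it was lost without any 1 of the 4 females (limma adjusted p from 0.0722 to 0.168). None of the 14 passed between genotype labels, and their median genotype difference was -0.26, or -0.067 in the females alone.

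Genes with the most similar profile were sought for the 6 members whose log2 values ranged over more than 1.5, among 12911 genes with a mean of at least 5 CPM, by the root mean square difference of centred log2 values over 6 libraries. The nearest to Mmp12 was C1qa, at 0.21 log2 units, then AW112010 (0.23) and the class I gene H2-Q5 (0.30). Ifi205 (0.24) and Rgs1 (0.25) were among the 3 nearest to Gpnmb. Rgs1, a regulator of G protein signalling, was also the nearest to Msr1 (0.18), followed by Tnfaip2 (0.20) and Csf2rb2 (0.21). Apoe had the closest matches, the lysosomal cathepsin Ctsz (0.073), Trim59 (0.082) and Sema4d (0.086). Trem2 lay near Il21r (0.27), Ms4a4b (0.28) and Lair1 (0.29), and Cd5l near Cacna1e (0.28), Ltb (0.30) and Gpr18 (0.31). With 6 libraries that differ mostly by 2 males, many genes share such a profile.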

How the data were processed

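RNA from whole lung was sequenced in 6 libraries. The deposited table gives CPM values per gene, with 0.0001 added to each by the authors as the values show. Reads were processed with TopHat2 and Partek on mm10, per the submitters' processing notes; annotation, filters and use of strand are given by no source used here. The step between low CPM values gave depths of 20.2 M to 27.6 M reads, but only 82.1% to 83.2% of values up to 100.0 reads came out whole within 0.05, so no count model was used. A level of 3 reads is 0.109 to 0.148 CPM, and this floor covers counting error only.

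Differences were tested with limma 3.58.1 (R 4.3.3, trend) on log2(CPM + 0.5), so they understate changes of low genes. Genes with a mean of at least 0.5 CPM were kept (17382), with terms for genotype label and sex, or both with their interaction; the lone male of each label is then assumed to vary like the females. P-values were adjusted by Benjamini-Hochberg over all genes tested, with a threshold of 0.05. The fit was also run on simulated data in which all libraries varied alike, so that run does not cover males that stand apart. Exact permutation tests used Python 3.11.15 and scipy 1.17.1. Exon lengths and positions came from GENCODE M21, which held 99.8% of the IDs.

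Alternatives were other pseudocounts and filters, quantile normalization, median centring, robust moderation, no sex term, females alone, and each library left out. The members and lists were chosen with earlier results of these data known, so the shares of all genes beside their counts are background and no independent test. The text names all members; of each pathway list the genes past a test, up to 4, or else the 2 of smallest genotype p; the most abundant marker of lists it describes; and the 3 nearest profiles. Other named markers, such as C1qa, Ly6c2 and Alas2, were chosen after their values were seen. A few genes that these rules select are not reported here.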

Additional observations from a re-analysis of the deposited data

Results flagged for a closer look

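The genotype difference of the males departed from that of the females (limma interaction) for 4 of the 10 genes: Trem2 (-3.05), Mmp12 (-3.01), Gpnmb (-2.0) and Apoe (-1.48), all on the log2 scale. Among the wider pathway lists it did so for Arl4c (-1.39), Cd68 (-1.49), Cxcl16 (-1.49), Ctsk (-2.12), Fabp5 (-2.0) and Itgax (-2.12), all lower, and for Lpl (1.90), which was higher. Each rests on 1 male per label.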

How the results depend on the processing

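Between genotype labels 2 genes passed; 6 did with no filter, quantile normalization, median centring or robust moderation, 4 in the females alone, and 1 to 4 with a library left out. No member passed under any of the 15 alternatives, but females alone and either male left out give the same genotype differences and are not separate checks. Between sexes 145 genes passed, and 21 to 877 with a library left out (21 without labelled knockout 2, 33 without labelled knockout 1, 57 and 70 without labelled wild type 2 and 1, 712 and 877 without the male labelled knockout and wild type); members past the threshold ran from 0 to 6. For the interaction 441 genes and 4 members passed, 0 and 0 with no filter (limma; 21900 genes tested), and 255 to 696 genes and 3 to 4 members with a female left out, 255 without labelled knockout 1 and 696 without labelled wild type 1; it could not be fitted without a male. The cause was not tested.

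Genotype differences, none called, changed sign as follows. In the females alone they were 0.024 for Abca1, 0.17 for Msr1, -0.35 for Spp1, 0.92 for Trem2 and 0.74 for Cd5l. Leaving out either male gave these same values, because the sex term then fits the remaining male. The ranges and counts over alternatives therefore hold the females-alone values more than once. Abca1 was 0.049 with median centring, and Trem2 0.022 with quantile normalization and 0.0051 with median centring. With a library left out, Abca1 ranged from -0.13 to 0.024, Abcg1 from -0.13 to 0.14, Msr1 from -0.49 to 0.17, Spp1 from -0.35 to 0.46, Trem2 from -0.52 to 0.92, Cd5l from -0.88 to 0.74 and Nr1h3 from -0.039 to 0.18. Sex differences then ranged from -0.13 to 1.34 for Apoe, -0.29 to 1.01 for Spp1, -0.95 to 2.06 for Mmp12, -0.66 to 2.38 for Trem2, -1.20 to 1.55 for Cd5l and -0.00034 to 0.16 for Nr1h3, and the interaction of Nr1h3 from -0.17 to 0.21. Of the members' values under alternatives, 127 of 150 between genotype labels, 114 of 130 between sexes and 101 of 110 for the interaction kept their direction and side of the threshold. No paired analysis was possible because the labels give no replicate numbers; the numbers 1 to 3 used here only name libraries in deposit order.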
